A study of Rattus norvegicus with 2 samples.

Results

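The genes described are 10 regulators, effectors and feedback genes of the ATF4 stress response: Atf4, Atf5, Trib3, Nupr1, Ddit3, Ddit4, Sesn2, Chac1, Asns and Cebpb. They were chosen by symbol, with their levels and differences on these same 2 arrays already known, so every value of theirs below is a description and none is a test. Of the 10 genes, 9 had a probe set whose only gene symbol was theirs, each a single probe set, among 18166 genes measured in all. Sesn2, encoding the leucine-binding protein sestrin 2, had none and was not analysed here.

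RNA came from C6, an established rat glioma line, in 2 samples with 1 array each. One is labelled SMiG, for C6 cells given small molecules, and the other is undifferentiated C6. The labels of the SMiG sample name forskolin (an activator of adenylyl cyclase), rapamycin (which blocks mTORC1) and I-BET151 (a BET bromodomain inhibitor), whereas the protocol text carried by both samples names CHIR99021 (a GSK3 inhibitor) at 20 µM with forskolin at 100 µM for 35 days, and the 2 accounts were not reconciled. Both samples share the DMEM medium with serum and antibiotics. Each group is 1 culture of 1 line, so no value has a replicate error, no p-value is given, and the number of arrays limits the precision. A lower signal from fewer expressing cells and one from less RNA per cell cannot be told apart in these bulk samples.

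ATF4 is a basic leucine zipper transcription factor at the centre of the integrated stress response. Kinases that sense amino acid shortage, misfolded protein, heme shortage or double-stranded RNA phosphorylate the initiation factor eIF2, which slows most translation but lets the Atf4 message, with its upstream reading frames, be translated more. ATF4 protein then pairs with C/EBP family members and switches on genes of amino acid uptake and synthesis, together with genes that damp the response or lead to cell death. The Atf4 mRNA level is therefore not a measure of ATF4 protein. In glioma the pathway has been studied for cell survival when nutrients or oxygen are short.

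ATF4 with a C/EBP partner binds a composite element, known as the C/EBP-ATF or amino acid response element, whose core can be written TGATGNAA. Promoter windows from RefSeq (build GRCr8, 250 bases before to 50 after the annotated start) were available for all 10 genes, matched by symbol, and were searched on both strands. The core was found in 3 of the 10, Nupr1, Trib3 and Chac1, against 3.82% of 27457 promoter windows, taking the first listed start of each gene. Its form TGATGCAA, which is a special case of the same core, was in Nupr1 and Chac1 and in 0.743% of all windows. The stretches around these matches are shown because they belong to 3 of the 4 genes with the widest gaps between the arrays. Capitals mark the core, which lies on the opposite strand in each and so reads as its reverse complement; each stretch runs 5′ to 3′ on the strand of its gene.

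Nupr1: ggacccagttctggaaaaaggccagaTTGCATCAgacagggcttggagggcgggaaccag
Trib3: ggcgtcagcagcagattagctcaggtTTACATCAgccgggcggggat
Chac1: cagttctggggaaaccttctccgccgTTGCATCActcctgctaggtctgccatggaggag

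The Nupr1 stretch is chr1:190645923-190645982 on the minus strand, with the core at positions −55 to −48 from the annotated start. For Trib3 it is chr3:161275534-161275580 on the minus strand, with the core at −21 to −14. The Chac1 stretch is chr3:126795938-126795997 on the plus strand, with the core at −167 to −160. Of the other motifs searched, the E-box CACGTG was in Atf4 and Nupr1 (6.65% of all windows), the NF-Y box CCAAT was in Ddit3, Ddit4, Sesn2 and Chac1 (37.7%), and the cAMP response element TGACGTCA was in 0 of the 10 (1.91%). No motif searched was matched in the windows of Atf5, Asns or Cebpb. A match is a string of letters in this window and not a shown binding site, and a window without a match says nothing of sites elsewhere.

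**Figure D1:**
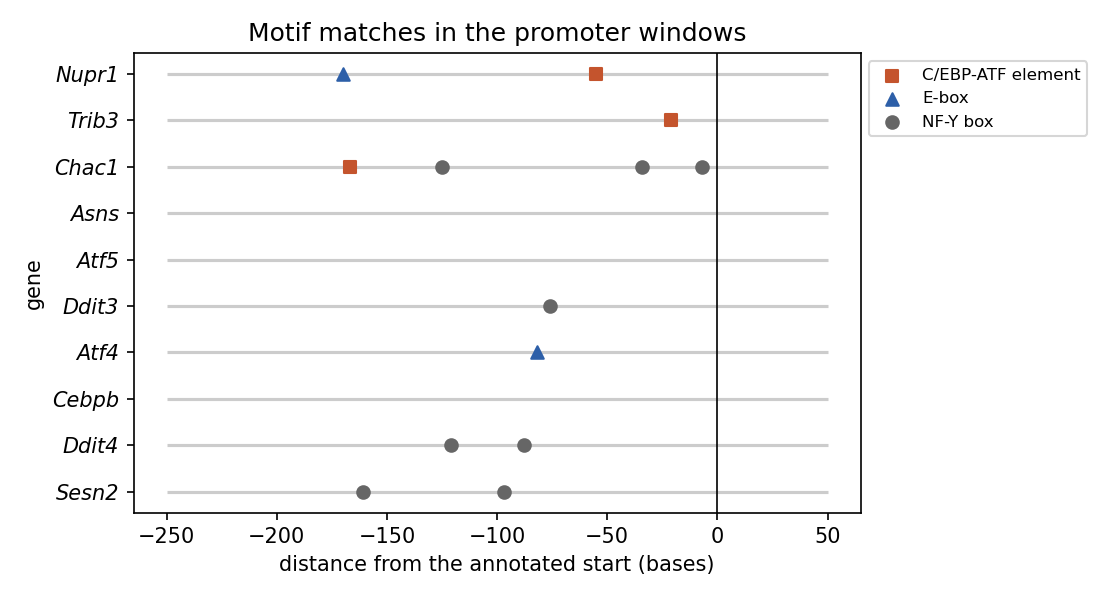
Positions of 3 motifs in the promoter windows of the 10 genes, in bases from the annotated start (vertical line), with grey lines for the windows and a symbol for the first base of each match. Squares, the C/EBP-ATF core, are present for Nupr1, Trib3 and Chac1, and the windows of Asns, Atf5 and Cebpb are empty.

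Each of the 9 measured genes had a lower value in SMiG than in C6, where 50.4% of 10942 detected genes were lower at any size. In these 9, 5 were lower by at least 2-fold, against 6.52% of detected genes, and 4 by at least 4-fold, against 1.31%. By at least 1.5-fold, 7 were lower, against 15.1%, and none was higher by 2-fold or more, against 3.19%. These shares are given for scale only, since the genes were chosen on this contrast. Detected means above the floor on at least 1 array, where the floor is the 95th percentile of 1341 olfactory and vomeronasal receptor genes, taken as silent, at 4.96 for SMiG and 4.83 for C6 on the log2 signal scale. All 9 were detected, but Nupr1 and Trib3 only through C6.

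The differences, SMiG minus C6 on the log2 scale here and throughout, ran from −4.86 to −0.41 with a median of −1.08, beside a median of −0.0058 over all detected genes. As a yardstick of array noise, the differences of the silent receptor genes had an SD of 0.32, which holds no variation between cultures. Where a gene had exactly 2 detected probe sets, in 147 genes, the 2 disagreed with an SD of 0.42, and no member has a second probe set against which to check its value.

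**Figure D2:**
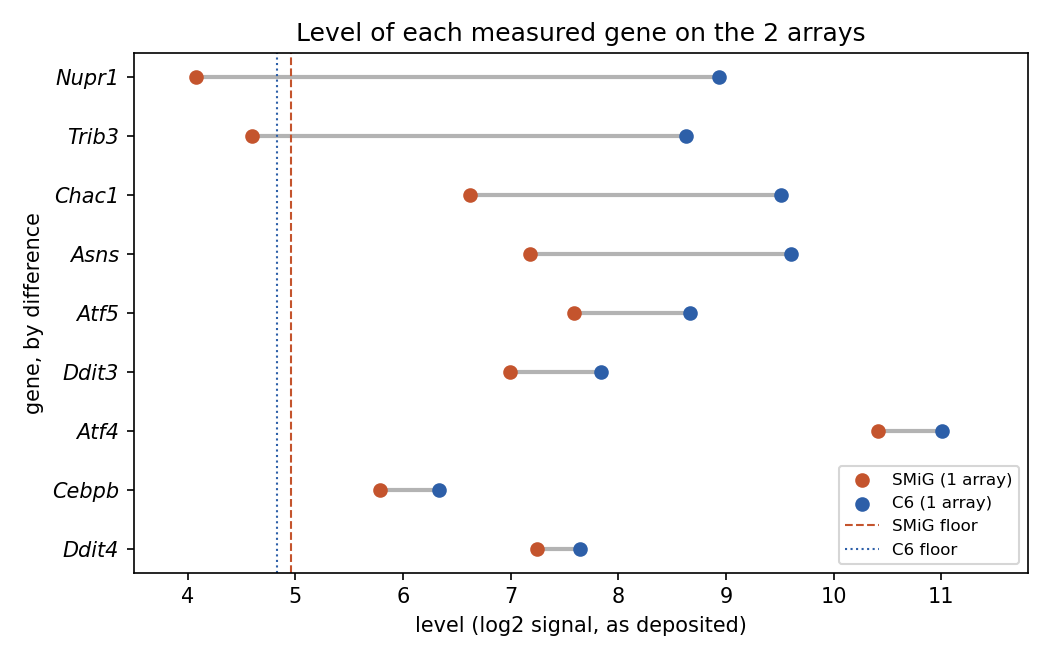
Level of each measured gene in SMiG (orange) and C6 (blue), 1 array each, in log2 signal as deposited, with grey bars joining the 2 values and broken lines for the floor of each array. Nupr1 and Trib3 lie below the floor in SMiG, and the other 7 genes lie above it on both arrays.

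Nupr1 and Trib3, both feedback genes, had the widest gaps. Nupr1 encodes a small stress-induced chromatin-associated protein. Its level was 4.08 in SMiG, under the floor, and 8.94 in C6 (log2 difference −4.86), and it was at least 15.7-fold lower when SMiG is set at the floor. Trib3 encodes a pseudokinase that binds ATF4 and AKT and restrains ATF4 activity. It stood at 4.60 in SMiG, also under the floor, and 8.62 in C6 (log2 difference −4.03), and so at least 12.7-fold lower. From the lowest of the 10942 detected differences, Nupr1 ranked 6 and Trib3 ranked 12. With values under the floor raised to it, Nupr1 ranked 9 and Trib3 again 12. Both messages were in the range of silent genes in SMiG and well above it in C6, so neither the size of the SMiG level nor the order of this pair is resolved.

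Chac1 and Asns are enzyme genes and common readouts of ATF4 activity. Chac1 encodes a gamma-glutamylcyclotransferase that degrades glutathione. It stood at 6.63 in SMiG and 9.51 in C6 (log2 difference −2.88), and so 7.36-fold lower. Asns encodes asparagine synthetase, which makes asparagine from aspartate and glutamine. It stood at 7.18 in SMiG and 9.60 in C6 (log2 difference −2.42), and so 5.34-fold lower. Both stayed above the floor on each array, so their folds are measured on both sides. They ranked 43 and 81 from the lowest. The gap between Chac1 and Asns is 0.46 on the log2 scale, or 1.45 times the SD of the silent genes. The step from Asns to the next gene, Atf5, is 1.33 on the log2 scale, or 4.17 such SDs. That SD is of single differences, whereas a gap lies between 2 of them.

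The transcription factor genes differed less. Atf5, encoding a relative of ATF4 that is likewise controlled at translation, was at 7.59 in SMiG and 8.67 in C6 (log2 difference −1.08), and so 2.12-fold lower. Ddit3 encodes CHOP, a C/EBP family factor induced by ATF4 and linked to stress-induced cell death. It was at 6.99 in SMiG and 7.84 in C6 (log2 difference −0.85), and so 1.80-fold lower. Atf5 thus lay just past 2-fold and Ddit3 just short of it, with 0.23 between their differences, less than the SD of the silent genes.

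Atf4 itself stayed well above the floor on both arrays. It was at 10.41 in SMiG and 11.00 in C6 (log2 difference −0.59), and so 1.51-fold lower. Cebpb, encoding a C/EBP partner of ATF4 that also answers to cAMP and inflammatory signals, was at 5.79 in SMiG and 6.33 in C6 (log2 difference −0.54), and so 1.46-fold lower. In units of the SD of the silent genes, the difference of Atf4 was −1.85 and that of Cebpb −1.70, so both lie within 2 such SDs of 0. That SD comes from genes far below Atf4 in level and may not be the noise of Atf4.

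Ddit4 was the nearest to level between the arrays. It encodes REDD1, an inhibitor of mTORC1 that is induced by ATF4, by hypoxia and by glucocorticoids. Its level was 7.24 in SMiG and 7.65 in C6 (log2 difference −0.41), and so 1.32-fold lower. That is −1.27 in SDs of the silent genes. From Atf5 through Ddit3, Atf4 and Cebpb to Ddit4 no step between neighbours exceeded 0.26, so the order of neighbours among these 5 genes is not resolved. The set therefore holds 4 genes lower by more than 4-fold and 5 between 1.32-fold and 2.12-fold lower.

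**Figure D3:**
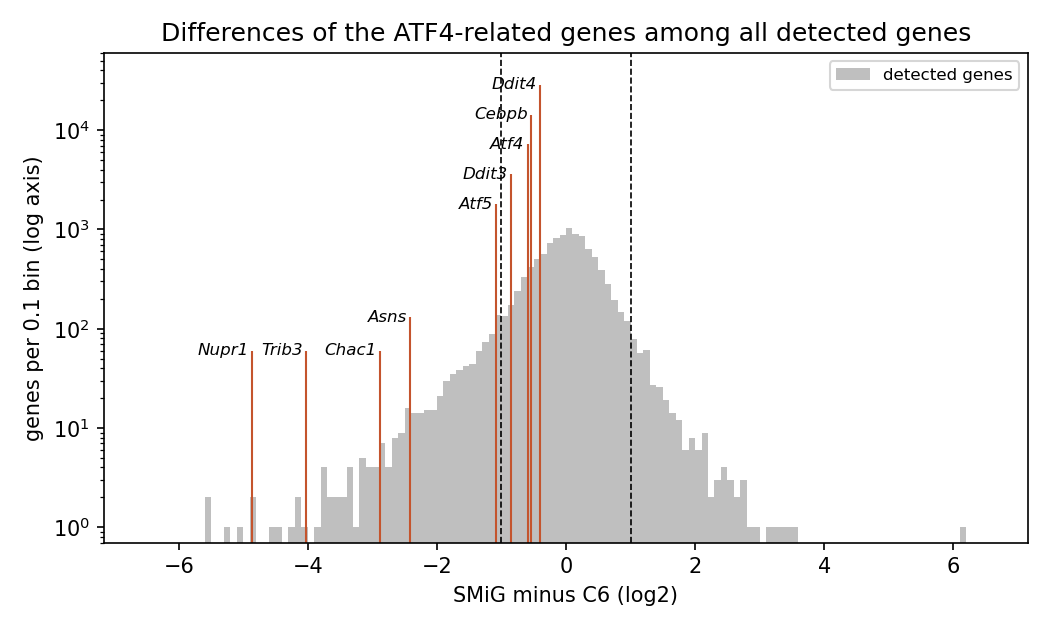
Histogram of the SMiG minus C6 differences (log2) of 10942 detected genes in bins of 0.1, with a logarithmic count axis; orange lines mark the 9 measured genes and have no meaning in height, and dashed lines mark 2-fold. Nupr1, Trib3, Chac1 and Asns lie in the sparse lower tail, from −4.86 to −2.42, and the other 5 lie at the lower shoulder, from −1.08 to −0.41.

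For the sensors and brakes upstream of ATF4, no gene reached 2-fold. Of 18 listed genes for eIF2 kinases, eIF2, its exchange factor eIF2B and its phosphatase, 14 were measured and detected, and 0 passed 2-fold in either direction, where 6.52% of all detected genes were that much lower and 3.19% that much higher, so few would be in a list of this size. Their median difference was −0.21, with 10 lower and 4 higher. The lowest, named after its value was seen, was Eif2s2, encoding the beta subunit of eIF2, at −0.93, below the values of Ddit3, Atf4, Cebpb and Ddit4. Eif2ak4, encoding the amino acid sensor GCN2, was at 7.02 in SMiG and 7.67 in C6 (log2 difference −0.65). Eif2ak3, encoding PERK, the sensor in the endoplasmic reticulum, was at 7.38 in SMiG and 7.76 in C6 (log2 difference −0.38). Ppp1r15a, encoding GADD34, the stress-induced subunit that removes phosphate from eIF2, was named after its value was seen. It was higher in SMiG, at 8.24 against 7.71 in C6, a difference of 0.53. It thus lay on the other side from Trib3 and Nupr1, although it is also a feedback gene and an ATF4 target.

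Among 14 detected partners and relatives of ATF4, 1 was at least 2-fold lower and 2 were at least 2-fold higher, around a median of −0.15. Over all detected genes these shares were 6.52% and 3.19%. Cebpg, encoding the C/EBP gamma partner of ATF4, was at 6.61 in SMiG and 8.003 in C6 (log2 difference −1.40), and so 2.63-fold lower. Atf3, a stress-induced factor gene downstream of ATF4, was at 5.68 in SMiG and 6.22 in C6 (log2 difference −0.54). Maf, encoding a large MAF factor, differed by 1.28 and the AP-1 subunit gene Jund by 1.02, both higher in SMiG. Of 6 genes that act on ATF4 protein turnover, 1 was past 2-fold by measured values, Egln3, encoding a prolyl hydroxylase, which was under the floor in SMiG at 4.34 against 5.72 in C6 and has a bound of at least 1.70-fold lower.

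The paralogues were split. Of 8 detected, 4 were lower and 4 higher, with a median of −0.08. Of these 8, 2 were at least 2-fold lower, against 6.52% of all detected genes. Trib2 was at 5.55 in SMiG and 6.55 in C6 (log2 difference −1.001), and Trib1 at 8.64 in SMiG and 9.15 in C6 (log2 difference −0.51). Both encode pseudokinases like Trib3, and both stayed above the floor in SMiG. Sesn1 and Sesn3, paralogues of the unmeasured Sesn2, were higher in SMiG. Sesn1, also a p53 target, was at 6.74 in SMiG and 6.15 in C6 (log2 difference 0.59), and Sesn3, a FOXO target, was at 9.88 in SMiG and 9.61 in C6 (log2 difference 0.27). Ddit4l, the paralogue of Ddit4, had no probe set with 1 symbol and was not analysed here. The wider list of sestrin, REDD1 and GATOR genes that control mTORC1 had 0 of 12 detected genes past 2-fold and a median of 0.13. Of all detected genes 6.52% were that much lower and 3.19% that much higher, so few would be in a list of this size.

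Most other ATF4 target genes on the list also had lower values in SMiG. Of 48 listed, 45 were detected, and 43 of these had a lower value in SMiG, against 50.4% of all detected genes. Among the 45, 33 were at least 2-fold lower, against 6.52%, and 0 were at least 2-fold higher, against 3.19%. The median was −1.40. With genes under the floor taken at their bound, 32 were at least 2-fold lower. All 13 genes of tRNA synthetases and tRNA export passed 2-fold, from −1.99 to −1.16. Of 9 amino acid transporter genes 7 passed it, with a median of −1.37, and of 13 detected enzymes of amino acids and one-carbon units 8 passed it, with a median of −1.50. This list was written with an earlier result on ATF4 targets in these arrays known, so it is no independent support.

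The 5 target genes with the widest differences were the cystine transporter gene Slc7a11, Cth (an enzyme of cysteine synthesis), Pck2 (mitochondrial phosphoenolpyruvate carboxykinase), Pycr1 (an enzyme of proline synthesis) and the glycine transporter gene Slc6a9. Slc7a11 differed by −3.77 and Cth was at least 11.0-fold lower, with its SMiG value under the floor. Pck2 differed by −3.29, at 5.49 in SMiG against 8.78 in C6. Pycr1 and Slc6a9 followed at −3.19 and −2.96. Not each target was low. Psat1, Stc2 and Cbs were picked out once the values were known. Psat1, encoding a serine synthesis enzyme, differed by −0.21, and Stc2, encoding the secreted protein stanniocalcin 2, by −0.12. Cbs, encoding cystathionine beta-synthase, differed by 0.35, but lay only 0.34 above the floor in SMiG and 0.13 above it in C6.

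The other arms of the unfolded protein response, which run through ATF6 and XBP1, had members on both sides of 0. Of 21 detected genes, 0 were at least 2-fold lower and 1 was at least 2-fold higher, beside 6.52% and 3.19% of all detected genes; 10 had a lower value and 11 a higher one, and the median was 0.01. Named after their values were seen, the factor genes Xbp1 at −0.90 and Atf6 at −0.59 and the chaperone gene Hspa5 at −0.65 were about as low as Ddit3 and Atf4. The 1 gene past 2-fold was Sdf2l1, a component of chaperone complexes in the endoplasmic reticulum, at 6.76 in SMiG and 5.61 in C6 (log2 difference 1.16). Among 4 detected targets of CHOP, 3 were higher in SMiG and 1 was at least 2-fold lower. That 1 was Ero1a, an oxidase of the endoplasmic reticulum that is also induced by hypoxia, at 8.32 in SMiG and 10.44 in C6 (log2 difference −2.12).

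**Figure D4:**
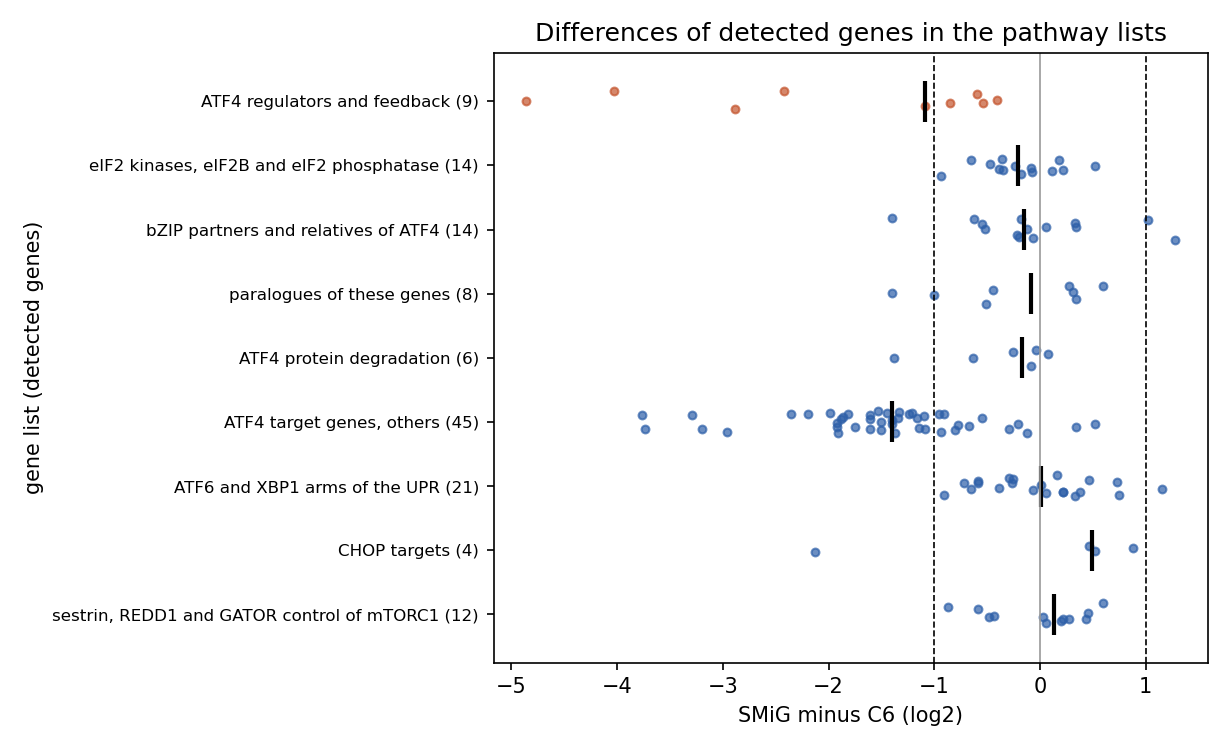
SMiG minus C6 differences (log2) of the detected genes of each list, 1 point per gene with vertical scatter added for legibility, black bars for medians, dashed lines for 2-fold and the number of detected genes in parentheses. The ATF4 genes described here (median −1.08) and the other ATF4 targets (median −1.40) lie to the left, while the lists of eIF2 control (median −0.21) and of the ATF6 and XBP1 arms (median 0.01) straddle 0; some genes stand in more than 1 list.

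Other signals that bear on single genes were also read. The glucocorticoid receptor also induces Ddit4. A list of its targets had 6 detected genes, among them the receptor gene itself, Nr3c1, named after its value was seen, at 0.09. Of these 6, 0 were at least 2-fold lower and 1, the clock gene Per1, was at least 2-fold higher, around a median of 0.03. Over all detected genes these shares were 6.52% and 3.19%. The 9 measured reference genes had a median of −0.37, below that of all detected genes, and B2m, encoding the light chain of MHC class I, was the 1 past 2-fold, at 1.05. Outside the lists, the 5 detected genes whose differences lay nearest to the median of the ATF4 genes were Tstd3, Ggh, Galc, Eif1a and Eif2d, with gaps of at most 0.00079 on the log2 scale, over 2 arrays. This likeness rests on a single difference per gene, and Galc was under the floor in SMiG.

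The labelled cell type was checked against markers. All 9 measured glial and glioma markers were detected, with summed log2 levels of 79.2 in SMiG and 75.9 in C6. Of these, 6 had a higher value in SMiG and 3 a lower one. The glial calcium-binding protein gene S100b differed by 1.20, the stem cell factor gene Sox2 by 1.16 and the lineage factor gene Sox10 by 1.01, whereas Vim was at 0.0056, Nes at −0.15, Olig1 at −0.20 and the astrocyte filament gene Gfap at −0.56. Of 8 microglia markers 5 were at or under the floor in SMiG and 6 in C6, among them Ptprc, Itgam, Aif1 and Csf1r on both arrays, with sums of 33.3 in SMiG and 33.8 in C6. Of the 3 detected, 1 was lower, Tmem119 at −0.81, and 2 higher, C1qa at 0.26 and P2ry12 at 0.87. P2ry12 was under the floor in C6. For 5 endothelial and mural markers the sums were 25.6 in SMiG and 28.1 in C6, with Cdh5 under the floor on both arrays. Of the 4 detected, 2 were lower, Pdgfrb at −2.36 and Tek at −0.86, and 2 higher, Rgs5 at 0.58 and Cldn5 at 0.10. Rgs5 was under the floor in C6, and Tek lay only 0.015 above the floor in SMiG. For 8 neuron markers they were 47.3 in SMiG and 50.6 in C6, with Tubb3 and Syt1 under the floor on both arrays. Of the 6 detected, 4 were lower, among them Gad1 at −2.08 and Eno2 at −0.81, and 2 higher, Snap25 at 0.52 and Map2 at 0.21. The other lower ones, Slc17a7 and Rbfox3, were under the floor in SMiG. For 6 fibroblast markers they were 32.8 in SMiG and 35.2 in C6, with Dcn and Lum under the floor on both arrays. Of the 4 detected, 3 were lower, Pdgfra at −1.17, Col1a1 at −1.15 and Col1a2 at −0.30, and 1 higher, Thy1 at 0.06. Col1a2 was under the floor in SMiG. The part of any of these differences in the values of the ATF4 genes was not tested.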

How the data were processed

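The authors deposited a number for each of 36685 probe sets on each array, taken here to be log2 expression. The log base was read from the range, 1.26 to 13.09. Per the labels' protocols, total RNA was made into sense cDNA, labelled with biotin and hybridised to whole-transcript arrays. How background was corrected, probes combined and arrays normalized is not given in the sources used here, and could change any fold. The 2 columns, each sorted, lay a median of 0.036 apart, so nothing was rescaled.

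Gene names came from the platform annotation, which gives 18511 probe sets 1 symbol, and probe sets of a gene were averaged. The platform gives Nupr1 the gene number 113900 and RefSeq 100912108, so its promoter rests on the symbol. The members and the lists were chosen with earlier results of these data known. Named genes are all members, up to 5 genes past 2-fold per pathway list, 9 genes fixed by symbol, and the 5 nearest to the members' median; other genes named are marker genes or are said to have been named after their values were seen. Counting at 2-fold was tried on simulated data, with genes lowered by 2-fold or 4-fold and noise of the SD of the silent genes. Such data hold no variation between cultures, so they do not say how sure any count here is. Alternatives were another floor or none, values raised to the floor, centring, lowess (span 0.3), quantile normalization, other probe set rules and other folds. Python 3.11.15, numpy 2.4.6, pandas 2.3.3, statsmodels 0.14.6 and matplotlib 3.10.9 were used.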

Additional observations from a re-analysis of the deposited data

How the results depend on the processing

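No paired analysis was possible because each group has 1 array. The number of members lower by at least the threshold was 4 to 7 over 10 alternatives. The ends were 4 at the 4-fold threshold, against 1.31% of all detected genes, and 7 at 1.5-fold, against 15.1%. The median difference of the members ran from −1.08 to −1.05 over 8 alternatives. Each member has 1 probe set, so the other probe set rules could not change these values. The floor settings, too, left the count and the median as they were. The number of other ATF4 targets at least 2-fold lower was 33 in the main setting. At the 4-fold threshold the count fell to 7, against 1.31% of all detected genes. At 1.5-fold it rose to 39, against 15.1%, and these 2 counts were the ends of its range. The median of these targets ran from −1.43 to −1.39. The median of the ATF6 and XBP1 list ran from 0.01 to 0.04. No member changed sign in its 8 alternatives. With values under the floor raised to it, Nupr1 stood at −3.98 and Trib3 at −3.66, and no other member moved by more than the SD of the silent genes. Centring, lowess and quantile normalization moved the median of all detected genes by at most 0.026. Below the floors of 4.96 in SMiG and 4.83 in C6 a level is not resolved, and 1 probe set per member leaves no check within a gene.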

Other observations

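The narrow form TGATGCAA of the promoter core was also counted across the series, with no test. Among 39 other ATF4 target genes with a promoter window, 12 held it, Aars1, Cars1, Iars1, Mars1, Nars1, Tars1, Yars1, Got1, Pycr1, Slc1a4, Herpud1 and Fgf21. Of these, 7 are tRNA synthetase genes, and each of the 7 was at least 2-fold lower in SMiG. So was each of the 13 listed genes of tRNA synthetases and tRNA export, whether or not this form was found. Promoter windows were available for 8984 detected genes other than the 10. Among these, 13 of 47 with this form (27.7%) were at least 2-fold lower, against 6.03% of those without it. For the whole core TGATGNAA the count was 26 of 174 (14.9%), against 5.97%. With every listed gene left out, 3 of 33 with the narrow form (9.09%) were at least 2-fold lower, against 5.88% of those without it, and the medians were −0.073 and −0.0037. With TGATGNAA it was 14 of 158 (8.86%), against 5.84%, and the medians were −0.0057 and −0.0038. The 3 genes with the narrow form were Serpinf1, Inhbe and Arid5b, the second of which encodes an activin subunit. Leaving out the listed genes lowered the share from 27.7% to 9.09% for the narrow form and from 14.9% to 8.86% for TGATGNAA. Of the 26 genes with TGATGNAA that were at least 2-fold lower, 14 were not on any list. Lists of ATF4 targets draw in part on this element.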
